A study of Mus musculus with 4 samples.

Results

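Transcripts of 35 genes for enzymes and complexes that write, bind or remove DNA methylation and histone marks were examined in cultured mouse cells exposed to daidzein or to its solvent. The genes were picked by symbol, as a set of DNA methyltransferases, Tet dioxygenases, Polycomb subunits and enzymes that add or remove methyl and acetyl groups on histones. All 35 were present among 55401 genes of the deposited table, on 1 row each, and 34 had enough reads to enter a test across 11700 genes. The Daidzein group held 2 libraries from cells given daidzein, an isoflavone of soybeans and a weak ligand of oestrogen receptors. Its dose and exposure time are not stated for these libraries. The Control group held 2 libraries from cells given DMSO. Both groups came from cells that the labels call female germline stem cells, taken from ovaries of C57BL/6 mice of unstated age, with condition "normal". All of them grew in medium with serum and 4 added mouse growth factors, namely the epidermal and the basic fibroblast growth factor, LIF and GDNF. The question addressed here is how much transcript of each modifier the cells held, and whether that level differed with daidzein.

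In mammals, methyl groups on the cytosine of CpG dinucleotides are laid down by Dnmt3a and Dnmt3b, copied after DNA replication by Dnmt1, and oxidised by the Tet enzymes on the way to removal. Polycomb repressive complex 2 (PRC2) methylates lysine 27 of histone H3 through Ezh1 or Ezh2, and complex 1 (PRC1) ubiquitinates histone H2A through Ring1 or Rnf2. Both complexes keep developmental genes silent. Germ cells are known for erasing and rebuilding DNA methylation, with Dnmt3l as a germ cell cofactor of the de novo enzymes.

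CpG pairs are the substrate of the DNA methylation members, and they were counted before the members' own starts. The windows printed here were picked and do not represent all members. RefSeq sequences of GRCm38.p6 were matched by symbol for 30 members, with 39 starts in all, and the 250 bases before each start were searched for CG on either strand, which reads the same on both. Among 32851 such windows of all genes, the median was 6 CpG pairs and 37.8% held 10 or more. In 29 of the 30 members the richest window held 10 or more, against 40.2% of all 27025 genes with a window, whether expressed here or not. The share among the genes tested was not computed. The exception was Dnmt3l, with 5, 4 and 3 pairs before its 3 starts. Dnmt1 held 2, 7 and 26 pairs before its 3 starts, and 166 bases of the window with 26 lie inside an annotated exon. The sequences below run 5′ to 3′ on the gene's strand, with CG in capitals, and lie outside all annotated exons. They were picked to set the methyltransferase gene with the highest and the one with the lowest level beside Tet2, which had the most CpG pairs, and Suz12, a PRC2 gene with a high level.
Dnmt1, outer start, chr9:20959889-20960138, minus strand: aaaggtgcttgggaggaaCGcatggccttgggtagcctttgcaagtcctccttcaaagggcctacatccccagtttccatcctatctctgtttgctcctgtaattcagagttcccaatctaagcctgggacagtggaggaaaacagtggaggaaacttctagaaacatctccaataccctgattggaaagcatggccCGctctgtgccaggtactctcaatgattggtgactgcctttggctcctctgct
Dnmt1, middle start, chr9:20952980-20953229, minus strand: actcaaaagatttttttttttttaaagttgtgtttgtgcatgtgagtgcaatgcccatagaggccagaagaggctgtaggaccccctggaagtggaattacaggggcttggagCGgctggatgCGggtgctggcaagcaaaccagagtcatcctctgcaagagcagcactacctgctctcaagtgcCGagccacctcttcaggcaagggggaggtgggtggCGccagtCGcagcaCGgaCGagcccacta
Dnmt3l, middle start, chr10:78049592-78049841, plus strand: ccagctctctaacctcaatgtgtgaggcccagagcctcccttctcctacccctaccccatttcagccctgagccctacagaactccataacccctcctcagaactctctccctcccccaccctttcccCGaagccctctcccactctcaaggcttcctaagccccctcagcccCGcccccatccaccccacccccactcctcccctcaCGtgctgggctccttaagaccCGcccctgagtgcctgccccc
Tet2, chr3:133544391-133544640, minus strand: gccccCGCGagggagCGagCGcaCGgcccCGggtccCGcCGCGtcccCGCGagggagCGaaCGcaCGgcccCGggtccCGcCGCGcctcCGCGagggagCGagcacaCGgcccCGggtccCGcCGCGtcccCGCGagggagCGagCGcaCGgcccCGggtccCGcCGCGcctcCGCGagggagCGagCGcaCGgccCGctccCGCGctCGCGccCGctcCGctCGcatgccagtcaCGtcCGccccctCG
Suz12, chr11:79992856-79993105, plus strand: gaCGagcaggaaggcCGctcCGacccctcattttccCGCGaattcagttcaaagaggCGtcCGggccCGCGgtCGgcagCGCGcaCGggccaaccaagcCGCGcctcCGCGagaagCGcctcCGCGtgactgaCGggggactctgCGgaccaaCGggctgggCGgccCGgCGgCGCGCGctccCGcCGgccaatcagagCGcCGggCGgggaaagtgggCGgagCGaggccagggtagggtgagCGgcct
The window of the innermost Dnmt1 start, with 26 pairs, is not printed because of its exon bases. Dnmt1 averaged 64.3 FPKM (reads per kilobase of exon, scaled to a common library total) over the 4 libraries. It had 2 and 7 pairs in the windows shown and 26 in the window not shown, so its level cannot be set against the printed windows alone. Tet2 averaged 0.560 FPKM with 51 pairs in its window, a number reached by 0.0670% of all windows. Suz12 had 37 pairs and averaged 30.7 FPKM. Over the 30 members, the richest window and the mean level had a Spearman correlation of 0.20, which is a description over genes that share 4 libraries. The counts are per gene, so which of several starts was in use is not known. Methylation of these windows was not measured.

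The libraries held 17192077 and 18537134 counts in the Daidzein group and 16230400 and 17119625 in the Control group. For a gene with 0 reads, counting error alone allows 3 counts, equal to 0.162 to 0.185 CPM (reads scaled to a common library total, without the gene's length). Nothing in the labels states that the replicates were separate cultures, so each p-value reflects the spread among these 4 samples, which may be technical. The labelled cell type was not borne out by its markers. Of 11 listed germ cell genes, 8 had at most 3 reads over all libraries. Among these, Pou5f1, Dppa3 and Tfap2c had 0, and Ddx4 had 2 reads in Control replicate 1. Dnd1, the 1 listed gene tested, had 20 and 19 reads in the Daidzein libraries and 13 and 21 in the Control libraries. Prdm1 had 3 and 2 reads against 1 and 2, and Ifitm3 had 1 and 0 against 4 and 0. The summed level of all 11 was 0.680 and 0.440 FPKM in the Daidzein libraries and 0.740 and 0.660 FPKM in the Control libraries. All 4 general blood cell markers were read, with a sum of 312.3 and 299.0 FPKM in the Daidzein libraries and 324.0 and 304.5 FPKM in the Control libraries. Kit and Cpa3, found in mast cells and their precursors, stood at 72.5 and 481.3 FPKM on average. Of the other listed mast cell genes, Fcer1a, Tpsb2 and Mcpt4 had 0 reads. Ms4a2 had 67 and 74 reads in the Daidzein libraries and 79 and 49 in the Control libraries. Hdc had 2 and 4 reads in the Daidzein libraries and 2 and 1 in the Control libraries. Of 3 listed macrophage genes, Adgre1 averaged 39.0 FPKM and Cd68 2.605 FPKM. Csf1r, the third, had 1 and 1 reads in the Daidzein libraries and 2 and 0 in the Control libraries. The ovarian stroma and granulosa genes summed to 0.70 and 1.11 FPKM in the Daidzein libraries and 1.08 and 1.14 FPKM in the Control libraries. The 2 listed T and B cell genes had 0 reads. The part of this make-up in the levels below was not tested.

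Most modifiers were well expressed, and a small number were nearly silent. Of the 35 members, 12 averaged 20 FPKM or more, 18 lay between 1 and 20 FPKM, and 5 lay under 1 FPKM. The most abundant were Dnmt1, Uhrf1 and Ehmt2, at 64.3, 57.3 and 53.8 FPKM, and these ranked 1028, 1164 and 1230 among the 11700 genes tested. The 5 lowest were Crebbp at 0.965, Tet2 at 0.560, Dnmt3l at 0.30, Cbx7 at 0.228 and Tet1 at 0.0250 FPKM. The members tested had a median of 9.93 FPKM, against 7.07 FPKM for all genes tested. In total RNA of a whole culture, fewer cells with a transcript and less of it per cell cannot be told apart.

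**Figure D1:**
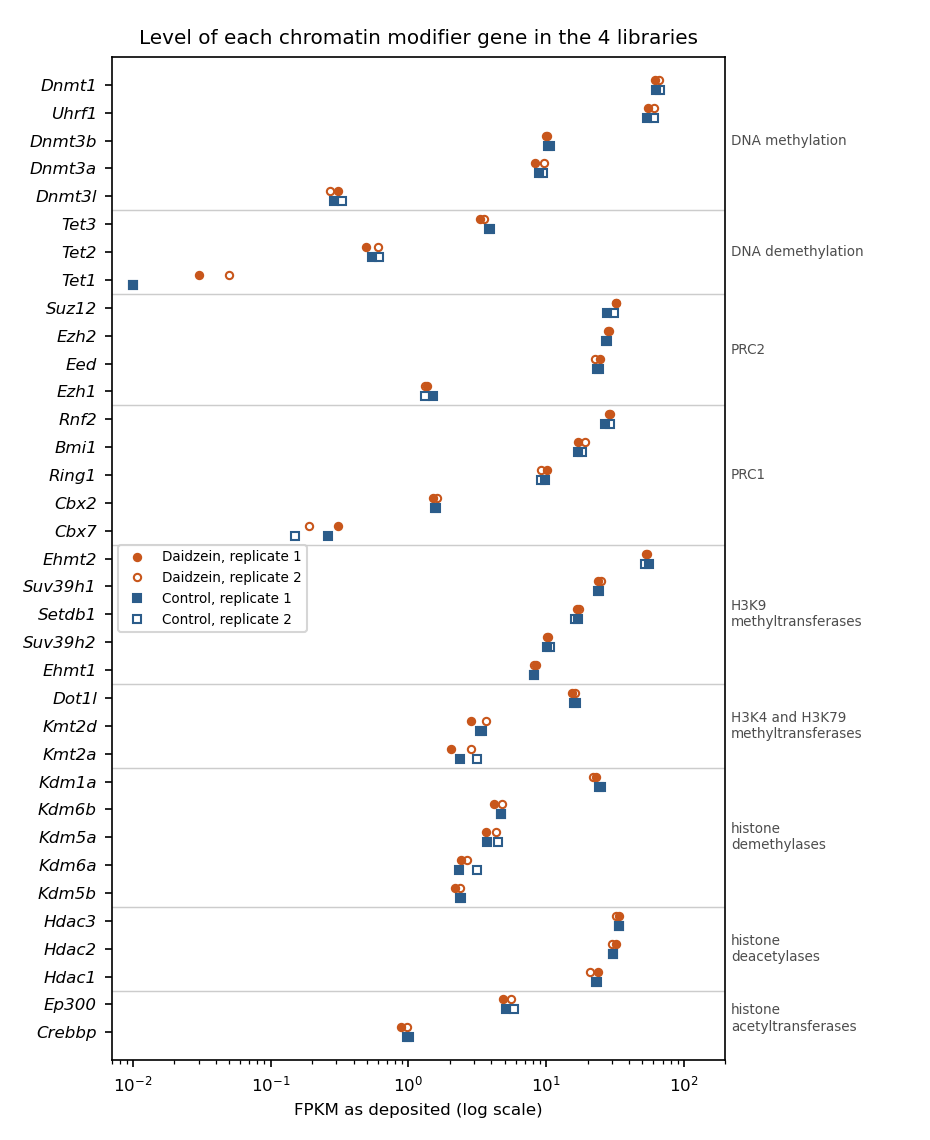
Deposited FPKM (log axis) of the 35 members, grouped by role and ordered by level within each role. Circles are the Daidzein libraries and squares the Control libraries, filled for replicate 1 and open for replicate 2. Levels span from 0.0250 FPKM for Tet1 to 64.3 FPKM for Dnmt1, and for most genes the 4 libraries lie close together.

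None of the 34 members tested was called as higher or lower with daidzein. By edgeR's quasi-likelihood test 0 passed a Benjamini-Hochberg adjusted p of 0.05, in a comparison that called 0.0171% of all genes tested. At an unadjusted p under 0.05 there was 1 member, Tet3, against 2.91% of all genes, and DESeq2 called 0 members with 0 at an unadjusted p under 0.05. The smallest adjusted p among members was 1.00. The median log2 difference of the members was -0.03, against -0.00275 for all genes tested, with 11 members above 0 and 23 below. Below 0 lay 67.6% of the members tested and 51.3% of all genes tested. The median size of the log2 difference, leaving out its sign, was 0.04 for members and 0.06 for all genes.

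For most members the intervals were narrow, given the spread among these 4 samples. If the replicates were not separate cultures, the intervals do not cover the spread between cultures. For 25 of the 34 members, the 95% interval of the fold lay within 0.8 and 1.25, which held for 59.8% of all genes tested. Among the 30 members tested with at least 1 FPKM, the lowest bound was 0.734, for Kmt2a, and the highest was 1.26, for Cbx2. The widest intervals belonged to Dnmt3l and Cbx7, which had few reads. The fold of Dnmt3l was 0.935 with an interval of 0.495 to 1.76, and that of Cbx7 was 1.23 with an interval of 0.70 to 2.16.

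**Figure D2:**
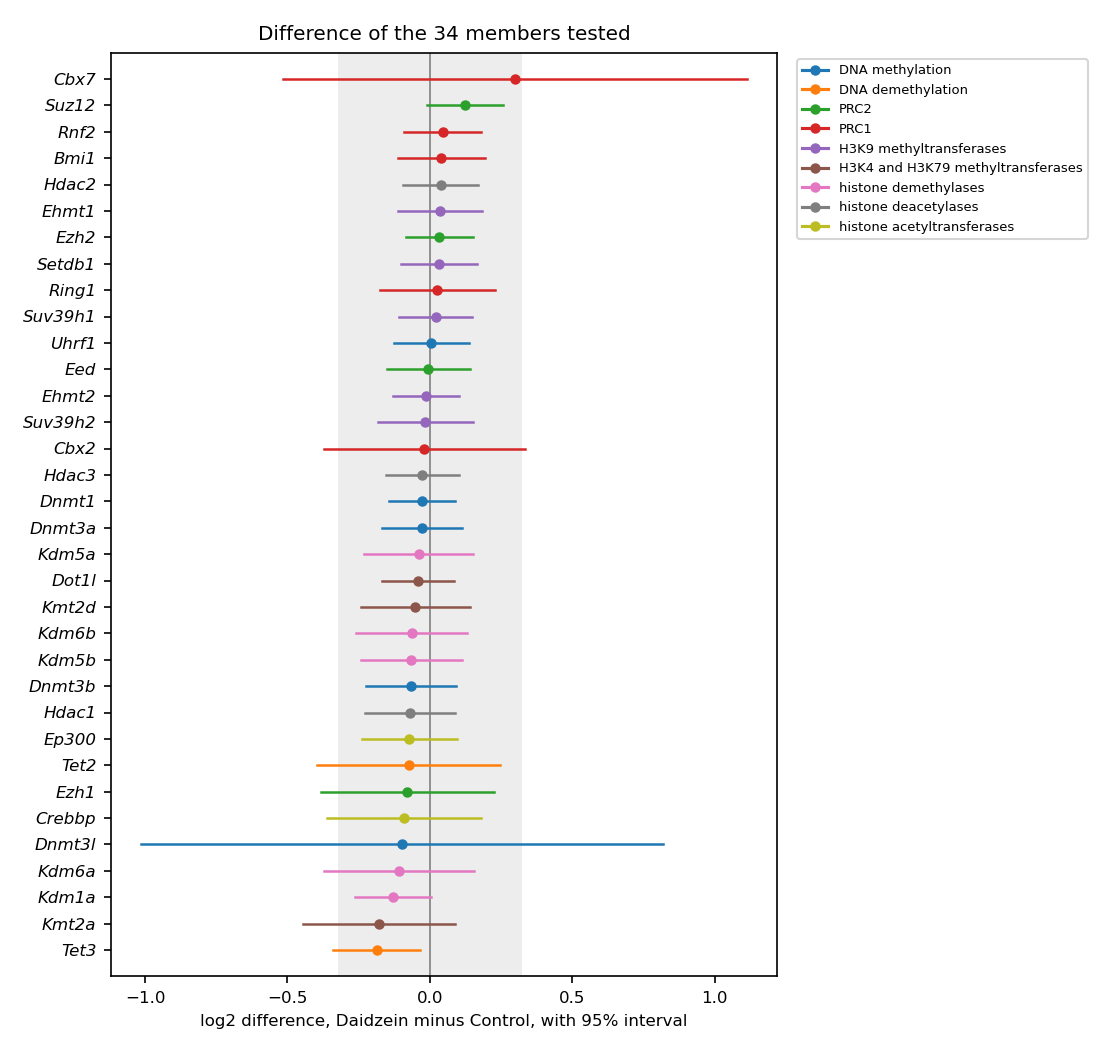
Log2 difference between Daidzein and Control libraries from the edgeR fit for the 34 members tested (points), with 95% intervals (lines), coloured by role. The grey band spans folds of 0.8 to 1.25. Tet3 is the member whose interval ends below 0, and the intervals of Dnmt3l and Cbx7 are the widest.

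Dnmt1, the maintenance methyltransferase, had 61.8 and 65.7 FPKM in the Daidzein libraries and 62.3 and 67.5 FPKM in the Control libraries. The groups overlapped, and replicate 2 was the higher library in both. Its fold was 0.982 with a 95% interval of 0.906 to 1.06. Uhrf1, which binds hemimethylated CpG and guides Dnmt1 to it, had 54.5 and 60.3 FPKM in the Daidzein libraries and 54.1 and 60.4 FPKM in the Control libraries. The values of Uhrf1 overlapped as closely as those of Dnmt1, with a fold of 1.00 (0.916 to 1.10). Part of the Uhrf1 transcript, 44.3%, matches a processed pseudogene at 95% identity or more, so some of its reads may have been left out or moved.

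The de novo enzymes stood lower than Dnmt1. Dnmt3a had 8.36 and 9.58 FPKM in the Daidzein libraries and 8.88 and 9.41 FPKM in the Control libraries. Dnmt3b had 10.1 and 9.93 FPKM in the Daidzein libraries and 10.3 and 10.7 FPKM in the Control libraries. The Dnmt3a values overlapped, while both Daidzein values of Dnmt3b lay below both Control values. The fold of Dnmt3b was 0.955 (0.855 to 1.07). Of the summed FPKM of the 4 methyltransferase genes, Dnmt1 made up 76.7% and 76.8% in the Daidzein libraries and 76.2% and 76.7% in the Control libraries. Dnmt3l, which lacks catalytic activity of its own, had 16 and 15 reads in the Daidzein libraries and 14 and 17 in the Control libraries. That is 0.310 and 0.270 FPKM against 0.290 and 0.330 FPKM, near the low end of all genes tested.

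Among the Tet dioxygenases, which oxidise methylcytosine, Tet3 made up most of the transcript. Tet3 had 3.29 and 3.55 FPKM in the Daidzein libraries and 3.85 and 3.94 FPKM in the Control libraries. Both Daidzein values lay below both Control values, with a fold of 0.878 (0.790 to 0.977) and an edgeR adjusted p of 1.00 from an unadjusted p of 0.0196. With each library left out in turn its log2 difference ran from -0.24 to -0.14. Tet2, often mutated in human blood cancers, had 0.49 and 0.60 FPKM in the Daidzein libraries and 0.540 and 0.610 FPKM in the Control libraries, with overlapping groups. Tet3 took 86.3% and 84.5% of the summed Tet FPKM in the Daidzein libraries and 87.4% and 86.5% in the Control libraries.

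Tet1, known from embryonic stem cells and primordial germ cells, was nearly absent from every library. It had 7 and 14 reads in the Daidzein libraries and 3 and 2 in the Control libraries, too few for the main test. Both Daidzein libraries were higher, at 0.588 CPM for the group against 0.150 CPM in the Control group. The ratio was 3.92, and its exact binomial 95% interval, for counting error alone, ran from 1.44 to 13.3. Without Daidzein replicate 2 the ratio was 2.73 (0.746 to 10.9) and without Control replicate 2 it was 3.17 (0.946 to 16.6). Without Daidzein replicate 1 it was 5.01 (1.71 to 17.8) and without Control replicate 1 it was 5.05 (1.23 to 44.4). With no filter on low counts edgeR gave an unadjusted p of 0.0249 and an adjusted p of 0.976, and DESeq2 an adjusted p of 0.999, so Tet1 was not called by either tool.

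PRC2 was represented mainly by its Ezh2 form. Ezh2, its methyltransferase in dividing cells, had 27.9 and 28.3 FPKM in the Daidzein libraries and 27.4 and 27.6 FPKM in the Control libraries. Ezh1, its counterpart in resting cells, had 1.37 and 1.31 FPKM in the Daidzein libraries and 1.51 and 1.32 FPKM in the Control libraries. Within a library Ezh2 stood above Ezh1 by a ratio of 21.1 ± 0.925 in the Daidzein group and 19.5 ± 1.98 in the Control group (SD, n = 2 each). These ratios overlapped between the groups. Eed, which binds the methylated lysine, had 24.6 and 22.6 FPKM in the Daidzein libraries and 24.1 and 23.3 FPKM in the Control libraries. The core subunits Eed, Suz12 and Ezh2 thus lay within a narrow range of levels, while Ezh1 lay far below.

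Suz12, the scaffold subunit, had the highest log2 difference among members with more than 1 FPKM. It had 32.0 and 31.9 FPKM in the Daidzein libraries and 27.8 and 30.9 FPKM in the Control libraries. The groups did not overlap, and Control replicate 1 was the lowest library. The fold was 1.09 (0.994 to 1.19), with an edgeR adjusted p of 1.00. Its log2 difference, 0.12, was 0.05 without Control replicate 1 and 0.20 without Control replicate 2.

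In PRC1, Rnf2 (Ring1b) was the more abundant of the catalytic subunits. Rnf2 had 29.1 and 28.3 FPKM in the Daidzein libraries and 26.6 and 29.0 FPKM in the Control libraries. Ring1 had 10.2 and 9.17 FPKM in the Daidzein libraries and 9.86 and 9.13 FPKM in the Control libraries. Both genes overlapped between groups, and Rnf2 stood 2.97 ± 0.170 times as high as Ring1 in the Daidzein group and 2.94 ± 0.341 times in the Control group (SD, n = 2 each). Bmi1 (Pcgf4), a partner that raises their activity and is needed by blood stem cells, had 17.1 and 19.0 FPKM in the Daidzein libraries and 17.0 and 18.2 FPKM in the Control libraries. Rnf2 overlaps Trmt1l on the opposite strand by 158 bases, and 73.9% of the Bmi1 transcript matches the gene Gm5946, which had 0 reads.

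Cbx2 and Cbx7, chromobox subunits that bind the PRC2 mark, were the lowest PRC1 members. Cbx2 had 1.5 and 1.61 FPKM in the Daidzein libraries and 1.59 and 1.56 FPKM in the Control libraries. Cbx7 had 0.310 and 0.190 FPKM in the Daidzein libraries and 0.260 and 0.150 FPKM in the Control libraries, and replicate 1 was the higher library in both groups. Cbx7 overlaps Apobec3 on the opposite strand by 100 bases. Apobec3 had 1716 reads in all and Cbx7 had 102, and without a known strand setting reads of the overlap cannot be assigned.

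Genes for methylation of lysine 9 of histone H3 (H3K9), a mark of silent chromatin, stayed close to their Control levels. Ehmt2 (G9a) had 52.9 and 54.2 FPKM in the Daidzein libraries and 56.0 and 52.1 FPKM in the Control libraries. Its partner Ehmt1 (GLP) had 8.50 and 8.19 FPKM in the Daidzein libraries and 8.20 and 8.09 FPKM in the Control libraries. The enzymes act as a heterodimer, but Ehmt1 transcript was 0.156 ± 0.00686 times that of Ehmt2 in the Daidzein group and 0.151 ± 0.00630 times in the Control group (SD, n = 2 each). Suv39h1 had 23.76 and 25.01 FPKM in the Daidzein libraries and 23.78 and 24.30 FPKM in the Control libraries. Suv39h2, best known from testis, had 10.2 and 10.3 FPKM in the Daidzein libraries and 10.1 and 10.7 FPKM in the Control libraries. Setdb1, which silences retroelements, had 16.8 and 17.4 FPKM in the Daidzein libraries and 17.1 and 16.3 FPKM in the Control libraries. All 5 genes of this role had overlapping groups, with log2 differences from -0.02 to 0.03. Overlap was common, as both Daidzein libraries were higher in 14.7% of all genes tested and both lower in 15.0%. Setdb1 and Suv39h2 overlap expressed genes on the opposite strand, Cers2 and Dclre1c.

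Of the 3 members that methylate lysine 4 or 79 of histone H3, marks of active genes, Dot1l, the lysine 79 enzyme, had the highest level. It had 15.3 and 16.1 FPKM in the Daidzein libraries and 15.9 and 16.5 FPKM in the Control libraries. The lysine 4 methyltransferases among the members, Kmt2a and Kmt2d, were lower. Kmt2a (Mll1), rearranged in human leukaemias, had 2.05 and 2.85 FPKM in the Daidzein libraries and 2.38 and 3.17 FPKM in the Control libraries. Kmt2d had 2.83 and 3.66 FPKM in the Daidzein libraries and 3.30 and 3.44 FPKM in the Control libraries. The groups overlapped in both genes, and replicate 2 was the higher library in each group. The log2 difference of Kmt2a, -0.18, was -0.43 without Daidzein replicate 2, 0.03 without Daidzein replicate 1, -0.36 without Control replicate 1 and 0.04 without Control replicate 2.

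The 5 histone demethylase members had log2 differences from -0.13 to -0.04, where 51.3% of all genes tested lay below 0. With a library left out Kdm5a, Kdm6a and Kdm6b changed sign, and the 11 other demethylase genes of a related list split into 5 above and 6 below 0. Kdm1a (Lsd1), which acts in the CoREST complex, had 23.1 and 21.9 FPKM in the Daidzein libraries and 25.1 and 24.1 FPKM in the Control libraries. Both Daidzein values were below both Control values, with a fold of 0.914 (0.833 to 1.00) and an edgeR adjusted p of 1.00. Kdm5a had 3.66 and 4.31 FPKM in the Daidzein libraries and 3.71 and 4.48 FPKM in the Control libraries. Kdm5b had 2.19 and 2.38 FPKM in the Daidzein libraries and 2.37 and 2.41 FPKM in the Control libraries. These enzymes remove methyl groups from lysine 4 of histone H3. The lysine 27 demethylase Kdm6b had 4.20 and 4.79 FPKM in the Daidzein libraries and 4.68 and 4.73 FPKM in the Control libraries.

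Kdm6a (Utx), another lysine 27 demethylase, lies on the X chromosome and has a copy on Y, Uty. It had 2.41 and 2.65 FPKM in the Daidzein libraries and 2.32 and 3.13 FPKM in the Control libraries, with overlapping groups. Uty had 0 reads in all 4 libraries, as did Kdm5d, the Y copy of Kdm5c. Xist, the RNA that coats the inactive X chromosome of female cells, had 0 and 3 reads in the Daidzein libraries and 0 in both Control libraries. Kdm5c had 14.7 and 15.5 FPKM in the Daidzein libraries and 15.4 and 15.9 FPKM in the Control libraries. Transcripts of the Y copies were therefore not detected at this depth, and neither was Xist beyond 3 reads.

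Hdac1, Hdac2 and Hdac3, class I histone deacetylases, were among the more abundant members. Hdac1 had 23.8 and 20.7 FPKM in the Daidzein libraries and 23.4 and 23.2 FPKM in the Control libraries. Hdac2 had 32.3 and 30.3 FPKM in the Daidzein libraries and 30.5 and 30.4 FPKM in the Control libraries. Hdac3, the catalytic subunit of the NCoR complexes, had 33.6 and 32.4 FPKM in the Daidzein libraries and 33.6 FPKM in both Control libraries. Daidzein replicate 2 was the lowest library for each of the 3 genes. Of the Hdac1 transcript, 71.1% matches a processed pseudogene at 95% identity or more, so its counts are uncertain.

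The acetyltransferases that oppose them, the coactivators p300 and CBP, differed in level. Ep300 had 4.86 and 5.55 FPKM in the Daidzein libraries and 5.09 and 5.85 FPKM in the Control libraries. Crebbp had 0.890 and 0.980 FPKM in the Daidzein libraries and 0.980 and 1.01 FPKM in the Control libraries. Ep300 transcript stood 5.57 ± 0.157 times as high as Crebbp in the Daidzein group and 5.50 ± 0.453 times in the Control group (SD, n = 2 each).

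Ratios within a library, which do not depend on its depth, were also compared between the groups. Of 12 ratios between related members, 11 overlapped between the groups, and the share over other gene pairs was not computed. Overlap does not mean equal values. Kdm6a over Kdm6b, for instance, was 0.573 and 0.553 in the Daidzein libraries and 0.495 and 0.662 in the Control libraries. The ratio of Hdac1 to Hdac2 was 0.737 and 0.683 in the Daidzein libraries and 0.767 and 0.763 in the Control libraries. It was the 1 ratio whose groups did not overlap, and it rests on Hdac1, whose counts are uncertain. With 2 libraries against 2, an exact two-sided permutation test cannot give a p below 0.333, so no test was made.

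**Figure D3:**
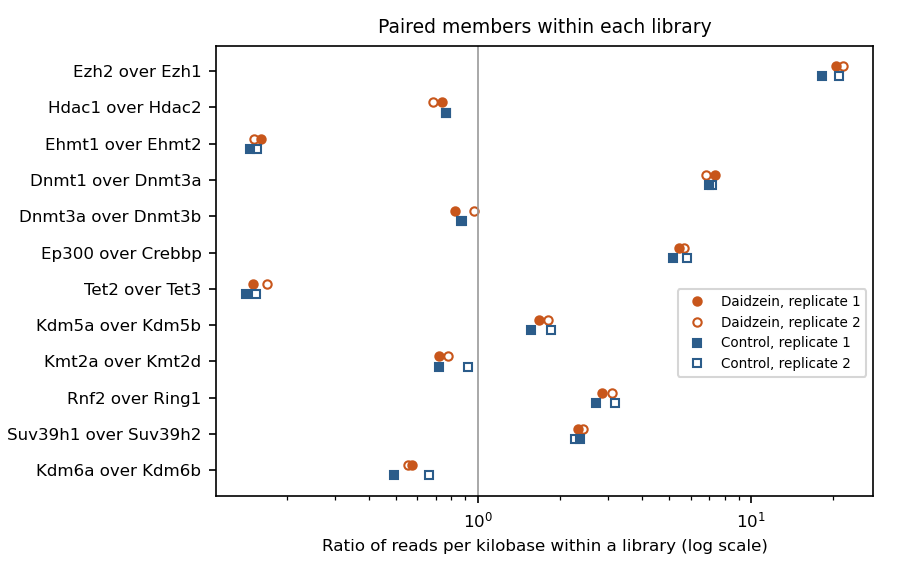
Ratio of reads per kilobase between 2 related members within each library (log axis). Circles are Daidzein and squares Control libraries, filled for replicate 1 and open for replicate 2. Ezh2 stands far above Ezh1 and Ehmt1 far below Ehmt2 in every library, and Hdac1 over Hdac2 is the ratio without overlap between groups.

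On CPM scaled by the trimmed mean of M-values (TMM), 2 of the 34 members tested had both Daidzein libraries above both Control libraries, Ezh2 and Suz12, where 14.7% of all genes tested did. In the opposite direction 5 did, Dnmt3b, Tet3, Kdm1a, Kdm5b and Crebbp, where 15.0% of all genes did. That is 5.88% of the members in the first direction, below the background, and 14.7% in the second, near it. All 7 genes had an edgeR adjusted p of 1.00.

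The members with the greatest exonic length differed between replicates in the same direction in both groups. These are Dnmt3a, Tet2, Tet3, Kmt2a, Kmt2d, Kdm5a, Kdm5b, Ep300 and Crebbp, all with an exonic length of at least 13540 bases, while no other member tested exceeded 8705 bases. In all 9, replicate 2 was above replicate 1 in both groups on the TMM scale. The median log2 difference between replicates was 0.18 in the Daidzein group and 0.07 in the Control group. For the 25 shorter members the medians were -0.02 and 0.00429, with 12 and 13 higher in replicate 2. Among the 1036 tested genes over 10 kb, 74.1% were higher in replicate 2 of the Daidzein group and 77.4% in that of the Control group, against 50.5% and 50.1% of all genes tested. Kmt2a stood out, with 34.4 and 47.3 CPM in the Daidzein libraries and 39.9 and 52.7 CPM in the Control libraries. All 9 long members also had a log2 difference between treatments below 0, from -0.19 to -0.03, while 50.1% of tested genes over 10 kb did. The split at 10 kb was chosen after the values were seen and was not tested.

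**Figure D4:**
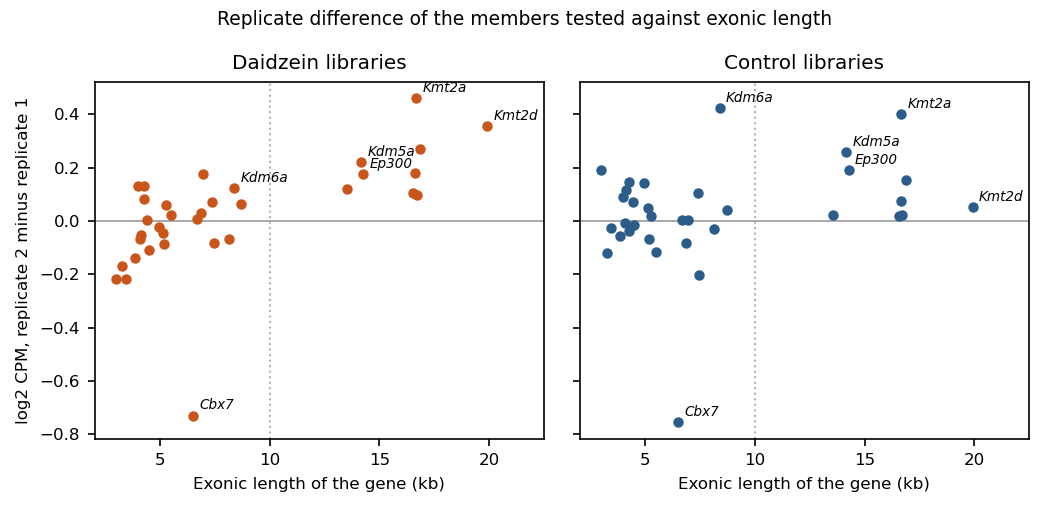
Log2 CPM difference between replicate 2 and replicate 1 against exonic length for the 34 members tested, in Daidzein (left) and Control (right) libraries. The dotted line marks 10 kb. All 9 members to its right lie above 0 in both panels, and Cbx7, with few reads, is the lowest point in both.

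No gene of the related lists was called either. In 11 related lists with 117 genes, from methyl-CpG binding proteins to chromatin remodellers, 114 were tested, and 0 rose and 0 fell by edgeR with adjustment over all genes. The test called 0.0171% of all genes. Of the 114 related genes 65 lay above 0 and 49 below, so that 43.0% lay below 0, against 51.3% of all genes tested and 67.6% of the members. Their median log2 difference was 0.01, against -0.00275 for all genes tested, and 1 (0.877%) had an unadjusted p under 0.05, against 2.91% of all genes. List medians ran from -0.05 for the other histone deacetylases to 0.05 for the other acetyltransferases. These lists and their members were chosen with earlier results of these data known.

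Few of the other Polycomb genes stood above the catalytic members. Of 8 further PRC2 subunit genes 2 had a mean FPKM above that of Ezh2 and 6 below. Of 18 further genes listed with PRC1, 2 lay above Rnf2 and 16 below. That list also holds Bap1 and Asxl1, which are not PRC1 subunits, and Bap1, at 34.5 FPKM, was 1 of the 2 above Rnf2. The genes with the highest level in their lists are given here. The PRC2 partner Rbbp7, a histone binding protein, had 174.2 and 172.8 FPKM in the Daidzein libraries and 168.8 and 169.5 FPKM in the Control libraries. Trim28, which brings Setdb1 to retroelements, had 221.5 and 217.2 FPKM in the Daidzein libraries and 229.8 and 218.2 FPKM in the Control libraries. Both had folds close to 1, at 1.03 (0.952 to 1.10) for Rbbp7 and 0.979 (0.908 to 1.06) for Trim28. The 8 further PRC2 subunit genes split into 5 above and 3 below 0, and the 18 genes listed with PRC1 into 9 and 9.

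The 1 related gene with an unadjusted p under 0.05 was Apobec1, a cytidine deaminase best known for editing apolipoprotein B mRNA. It had 20 and 18 reads in the Daidzein libraries and 42 and 37 in the Control libraries. Both Daidzein libraries were lower, with a fold of 0.451 (0.274 to 0.741), an unadjusted p of 0.00334 and an edgeR adjusted p of 1.00.

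**Figure D5:**
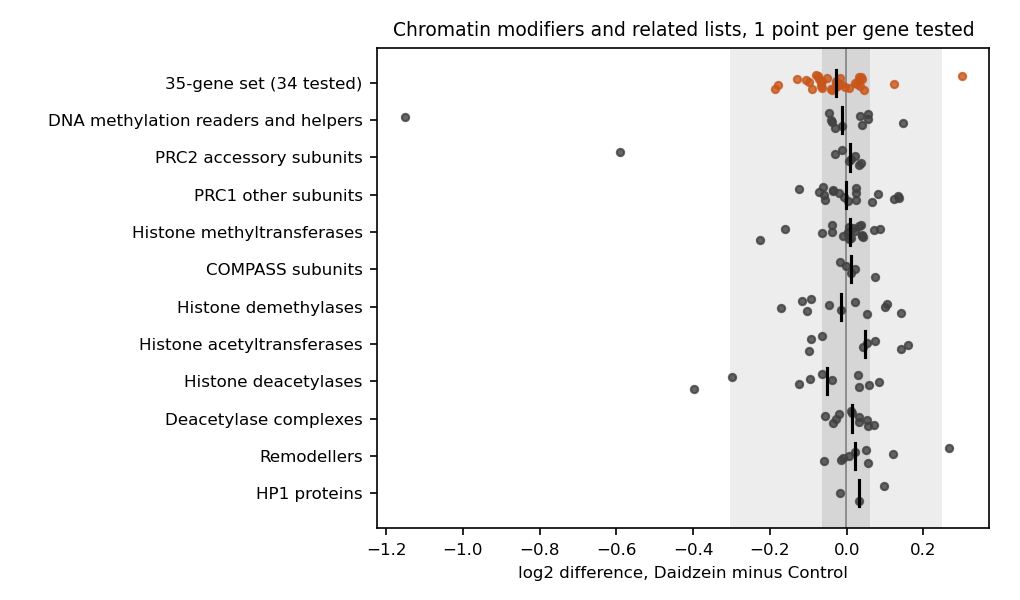
Log2 difference between Daidzein and Control libraries for the 34 members tested (top row, orange) and for 11 related lists (grey), 1 point per gene, with a bar at each median. The dark band holds the middle 50% and the light band the middle 90% of all 11700 genes tested. Medians of the lists lie between -0.05 and 0.05, and Apobec1 is the point furthest left.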

How the data were processed

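RNA was sequenced from 4 samples of mouse cells, 2 given daidzein and 2 given DMSO, grouped by the titles. The submitters' processing notes name mm9 as build and, as tools, DESeq2, HTSeq 0.6.1 and HISAT2 2.0.1, without saying what each did. All 35 members have the same start in GENCODE M21, an annotation of GRCm38, so coordinates are on GRCm38. No source used here gives the strand setting or the annotation release.

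The table deposited by the authors holds unnormalized read counts per gene. It also holds the authors' FPKM values, and 100% of those with a read lay within 0.01 of count over exonic length and library total. Counts were used for tests and FPKM for levels between genes. The exonic length is 1 value per gene, not that of the transcript in use, so FPKM levels and ratios between genes depend on it. Reads that match several places may be missing or split, and reads of overlapping genes on opposite strands cannot be told apart. Copies of members were searched among GENCODE transcripts with blastn 2.17.0 at 95% identity. Of 107 symbols with more than 1 row, none a member, the row with the highest total was kept.

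The test was that of edgeR 4.0.16, run in R 4.3.3 (quasi-likelihood F test, TMM, default filterByExpr filter with a minimum count of 10), with group as the only term and Benjamini-Hochberg adjustment over 11700 genes at 0.05. Intervals are 95% intervals from that fit. CPM values are scaled by TMM, except for the limits for 0 reads, which use the library totals. Alternatives were DESeq2 1.42.0, RLE scaling, no filter, a filter of 5 CPM, robust estimation, the replicate number as a block, each library left out, and limma 3.58.1 (trend) on log2(FPKM + 1) and log2(FPKM + 0.1). The steps were tested on simulated data. Promoter windows came from RefSeq. For Tet1, the values without a filter and with a library left out were added after seeing the data.

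Members, related lists and markers were chosen with earlier results of these data known. All members are named. Of the related lists, genes past the threshold and at most the 2 with the highest FPKM and the 2 with the smallest p per list were to be named, and a few partners of members were chosen from these.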

Additional observations from a re-analysis of the deposited data

How the results depend on the processing

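No member was called under any of the 12 alternatives, and the lowest adjusted p was 0.135, for Kmt2a without Daidzein replicate 2. The count of genes called, 2 by edgeR, was 1 by DESeq2 and with the stricter filter, 11 without a filter, 27 with the replicate block, and 0 by limma with either pseudocount. Leaving out 1 library gave 1 to 17 calls, and the single library then left in its group is taken to have the spread of the other group. The members' median log2 difference lay between -0.06 and 0.00032 in these fits and moved by less than the spread between replicates in every setting. Of 406 recomputed values of 34 members, all stayed on their side of the threshold, but 37 changed sign, all of them with a library left out, in 25 members. Replicate numbers are not stated to mark a shared culture or day, so libraries were not taken as paired. Across genes, the replicate differences of both groups had r = 0.11 over all genes tested and 0.74 over the members, from only 2 pairs, and members were not called with the block either. The cause of the changes in count was not tested. With 2 libraries per group, the intervals given hold the folds that the fit does not exclude, and small differences may have been missed. At 2 to 35 reads per library Tet1, Dnmt3l and Cbx7 are limited by depth.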
